A study of Homo sapiens with 12 samples.

Results

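Small nuclear RNA (snRNA) was measured in ribosome-profiling libraries of HepG2 cells, a human liver cancer line, after knockdown of IGF2BP3. The members described here were the 128 genes of GENCODE 44 type snRNA whose counts summed to at least 1000 over the 6 ribosome-protected fragment (RPF) libraries, out of 1900 snRNA genes and 58721 genes in all. The members were thus chosen by their summed RPF counts, and their RPF levels are given below as a description. 7SK, which GENCODE also types as snRNA, was left out. Of all snRNA genes, 1166 had any RPF count. Just inside the threshold lay RNU1-115P with a sum of 1158.5 and RNU1-63P with 1019.9, and just outside lay RNU2-25P with 928.09 and RNU1-149P with 873.78. With the threshold scaled to the depth of each condition, 120 members passed in both conditions, 8 passed in siIGF2BP3 alone and 0 in siControl alone. Those 8 were RNU4ATAC5P, RNU4ATAC9P, RNU4ATAC10P, RNU4ATAC11P, RNU4ATAC13P, RNU1-63P, RNU1-115P and RNU2-39P, which became members through the condition in which they are high.

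The HepG2 cells carried a transient knockdown with either control siRNA (siControl) or siRNA to IGF2BP3, which encodes a protein that binds mRNA (siIGF2BP3), and each condition gave 3 RPF and 3 Input libraries, numbered 1 to 3. Cycloheximide at 100 μg/mL, which stalls ribosomes, was added to all cells for 4 min before lysis. RNase I then digested the lysates, the digests passed through a spin column, and RNA of 28 to 30 nt was recovered by gel excision and depleted of rRNA. The Input samples carry the same protocol text, so how their libraries were made is not described. The knockdown was transient and in a single cell line, and the labels do not say whether the 3 libraries of a group came from separate cultures, so p-values measure only the spread between these libraries.

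Most snRNAs are short nuclear RNAs that work in particles with proteins. U1 and U2 recognise the 5′ splice site and the branch point of introns, U4, U5 and U6 join them as a tri-snRNP, and U11, U12, U4atac and U6atac do the same work for a rare class of introns. U7 acts in the 3′ end processing of histone mRNA. All classes but U6 and U6atac carry a site for a ring of Sm proteins, and most are exported to the cytoplasm for assembly before they return to the nucleus. The human genome holds many copies of each gene, most of them pseudogenes, and 81 of the 128 member symbols end in P, the mark of a pseudogene.

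By symbol, 64 members were U1 genes (of 145), 37 were U2 (of 90), 8 were U5 (of 31), 7 were U4 (of 97), 6 were U4atac (of 18), 3 were U7 (of 156), 2 were U12 (of 2) and 1 was U11 (of 6). No U6 gene (of 1309) and no U6atac gene (of 41) reached the threshold. Each class with members has a reference copy with which its other copies are compared, and those of 7 classes are printed here. The letters are those of hg38, read 5′ to 3′ on the gene's strand, and in all 128 members the deposited coordinates and the genome sequence equalled those of the GENCODE transcript. Capitals mark the element that pairs with the substrate where a search was made (ACTTACC in U1, which pairs with the 5′ splice site; GTAGTA in U2, with the branch point; CTCTTTT in U7, with histone pre-mRNA), and after it the core of the Sm site (ATTTNT). Only the RNA strand was searched.
RNU1-1: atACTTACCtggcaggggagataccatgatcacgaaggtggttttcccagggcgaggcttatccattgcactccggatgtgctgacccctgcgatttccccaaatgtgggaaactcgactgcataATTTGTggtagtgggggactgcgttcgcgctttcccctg
RNU2-1: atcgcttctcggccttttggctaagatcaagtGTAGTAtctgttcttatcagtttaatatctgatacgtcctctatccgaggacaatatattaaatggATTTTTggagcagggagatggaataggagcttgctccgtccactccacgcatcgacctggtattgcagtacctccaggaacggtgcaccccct
RNU4-1: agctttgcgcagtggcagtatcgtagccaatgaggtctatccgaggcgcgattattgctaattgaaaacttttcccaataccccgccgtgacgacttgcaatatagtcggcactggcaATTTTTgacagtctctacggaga
RNU11: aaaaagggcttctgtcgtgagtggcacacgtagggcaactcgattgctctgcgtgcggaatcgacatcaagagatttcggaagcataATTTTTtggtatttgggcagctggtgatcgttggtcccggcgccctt
RNU12: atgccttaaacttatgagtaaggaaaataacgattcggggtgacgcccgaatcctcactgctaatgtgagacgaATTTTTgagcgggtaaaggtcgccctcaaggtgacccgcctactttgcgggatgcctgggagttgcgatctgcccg
RNU4ATAC: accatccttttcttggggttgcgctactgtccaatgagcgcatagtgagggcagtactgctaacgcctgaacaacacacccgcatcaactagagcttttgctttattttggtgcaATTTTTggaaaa
RNU7-1: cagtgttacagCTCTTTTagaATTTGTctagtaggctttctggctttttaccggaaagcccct
The U1 copy lies at chr1:16514122-16514285 on the minus strand, the U2 copy at chr17:43233787-43233977 on the minus strand, the U12 copy at chr22:42615244-42615393 on the plus strand and the U4atac copy at chr2:121530881-121531007 on the plus strand. The pairing element was present in 33 of the 64 U1 members and in 39.3% of all U1 genes, in 27 of the 37 U2 members and 58.9% of U2 genes, and in 3 of 3 U7 members and 59.0% of U7 genes. The letters TTTTAC of the U5 loop, which holds the exons, were present in 8 of 8 U5 members and 80.6% of U5 genes. The Sm core was present in 58 of 64 U1, 33 of 37 U2 and 6 of 7 U4 members and in every member of the other classes. A match describes the letters and does not show that a copy is made or assembled.

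Total counts were 13036423 to 31510601 in the RPF and 11219750 to 14797573 in the Input libraries. HepG2 identity was checked with 6 hepatocyte genes (ALB, AFP and others), which summed to 46535 to 51258 CPM (counts scaled to the library total) in Input. The sum was 22.8 to 27.2 CPM for 6 genes of other lineages. Most of that sum was CD68, a macrophage gene, at 19.7 to 24.8 CPM, while PTPRC and DCN were at 0. IGF2BP3 itself lay at 74.6 to 78.1 CPM in siControl RPF and 21.9 to 28.0 CPM in siIGF2BP3 RPF (log2 fold change -1.59 ± 0.08 SE, adjusted p = 0.000301), and at 127 to 133 against 97.9 to 105 CPM in Input (log2 fold change -0.39 ± 0.05 SE, adjusted p = 1.06e-05). Over all genes, siControl RPF replicates 2 and 3 differed by less than the sampling noise (mean chi-square per gene 0.941), so they count as 1 sample in each mean ± SD of siControl RPF (n = 2), while the tests keep the 3 libraries. Over the 128 members that value was 6.29, so for snRNA these libraries did differ by more than counting noise. siIGF2BP3 RPF replicate 1 stood apart, with a mean chi-square over the members of 878 against replicate 2 and 906 against replicate 3, where replicates 2 and 3 gave 8.74. Values without that library are given beside the RPF comparisons below.

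snRNA made up 2.01%, 2.16% and 2.11% of the counts in siControl RPF replicates 1, 2 and 3, and 4.24%, 2.67% and 2.59% in siIGF2BP3 RPF. In Input it made up 0.00418% to 0.00507%. The 128 members held 98.9% of the snRNA counts in RPF, with 19884 to 21418 CPM in siControl and 25576 to 41950 CPM in siIGF2BP3, but only 254 counts over the 6 Input libraries together, or 2.70 to 4.38 CPM per library. In Input, 78 members had 0 counts in all 6 libraries, and a count of 0 allows up to 0.203 to 0.267 CPM per library, for counting error only. snRNA was thus read almost only in the short-fragment libraries.

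U1 took 59.6% of the snRNA counts in RPF and U2 24.4%, followed by U5 with 5.40%, U4 with 4.38%, U12 with 3.38%, U7 with 1.32%, U11 with 0.888%, U4atac with 0.306%, U6 with 0.265% and U6atac with 0.0619%. Per length, the summed siControl RPF level was 7456 CPM per 100 nt for U1, 2647 for U2, 989 for U5, 712 for U4, 456 for U12, 455 for U7, 149 for U11, 47.8 for U6, 42.6 for U4atac and 9.65 for U6atac. U12 and U7 were neighbours in this order and did not differ beyond their spread, since the summed levels behind them were 698 ± 81.5 and 287 ± 18.1 CPM (SD, n = 2) on median gene lengths of 153 and 63 nt. U6 was the class with the smallest gap between the assays, at 43.9 to 55.6 CPM in siControl RPF and 23.5 to 31.0 CPM in Input. For U1 the Input level was 10.2 to 14.0 CPM, and for U5 it was 0 to 0.0799 CPM. How reads with many alignments were counted is not given, and such reads may differ between classes. A stretch of fragment length in RNU6-1, the U6 reference copy, occurred at 16 to 57 places in the genome. For RNU2-1 the range was 12 to 116 places, and for RNU12 it was 1 to 2. The effect on these shares, levels and gaps, and on the order of the classes, was not tested.

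**Figure D1:**
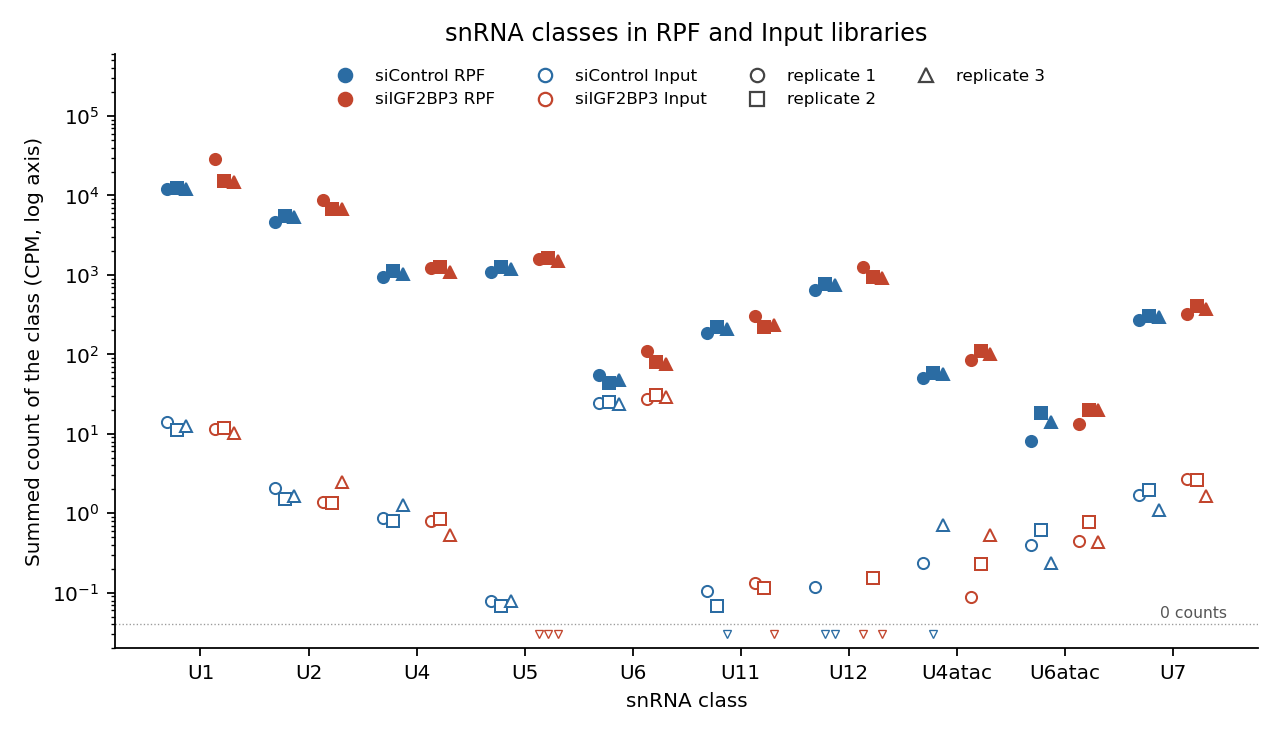
Summed level of each snRNA class (y axis, CPM, log axis) in every library. Filled symbols are RPF and open symbols Input libraries, blue is siControl and red siIGF2BP3, the shape gives the replicate, and small triangles under the dotted line are libraries with 0 counts. U1 lies at 12168 to 28751 CPM in RPF and at 10.2 to 14.0 CPM in Input, and U6 shows the smallest gap between the assays.

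Copies of a class share reads, so their values are not all separate measurements. Of the 128 members, 119 had fractional values in all 6 RPF libraries, as arise when a read with several alignments is split. The authors' counting options are not given, so the splitting is read from these values only. Values equal within 1% in every RPF library were found in 4 sets with 25 members: 9 U1 genes (RNU1-1, RNU1-2, RNU1-3, RNU1-4, RNU1-27P, RNU1-28P, RNVU1-7, RNVU1-18 and RNVU1-29), 12 U2 genes of the tandem array on chromosome 17 (RNU2-1 and 11 copies named only U2), RNU2-26P with RNU2-57P, and RNU4ATAC9P with RNU4ATAC11P. RNU1-4, for example, was at 622, 672 and 655 CPM in siControl RPF and 1356, 804 and 777 CPM in siIGF2BP3 RPF, and RNU1-2 at 621, 670 and 654 against 1354, 802 and 776 CPM. Such sets are counted once where the text says so, and whether their copies give separate signals was not tested.

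The sequences bear on how far copies can be told apart. Identity to the reference copy ran from 65.4% to 100% over the members, with a median of 90.1%. In windows of 29 nt, about the length of a footprint, 19 members (8 U1 and 11 U2) had no window that occurs only once in hg38, and in 97 members at least 50% of the windows did. A window of RNU1-1 occurred at a median of 13 places and at most at 24, one of RNU2-1 at a median of 15 and at most at 116, and one of RNU6-1, the U6 reference copy, at a median of 35 and at most at 57. RNU12 and RNU11 had a median of 1 place. Levels of single U1, U2 and U6 genes thus depend on how shared reads were split, and those of RNU11 and RNU12 depend on it less.

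High counts were not limited to copies like the reference. RNU1-22P (chr16:3086143-3086300, plus strand) has 73.5% identity to RNU1-1, and 90.0% of its windows occur once in the genome. It lay at 577, 692 and 647 CPM in siControl RPF and at 1207, 765 and 758 CPM in siIGF2BP3 RPF, close to RNU1-4. Its other windows occur at up to 15 places, and its counts were fractional in all 6 RPF libraries. Where the reads of this gene lie was not examined, so the part of them shared with other U1 copies is not known. RNU2-36P, with 88.0% identity to RNU2-1, was the highest U2 member, at 373, 448 and 435 against 714, 561 and 556 CPM. The RNU1-22P sequence shows where its difference lies, with bases that differ from RNU1-1 in capitals. The start of the gene, with the pairing element, differs most, and the part from the middle to the 3′ end is nearly that of U1.
RNU1-22P: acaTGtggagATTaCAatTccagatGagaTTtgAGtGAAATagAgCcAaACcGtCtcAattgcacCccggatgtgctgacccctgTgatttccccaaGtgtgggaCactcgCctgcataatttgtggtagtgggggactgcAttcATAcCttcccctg
Among the U1 members, the 15 with at least 95% identity had a median of 639.8 CPM in siControl RPF (53.7 to 643), and the 49 below 95% had a median of 42.3 CPM (6.03 to 623). Among the U2 members the medians were 245 CPM for 15 genes and 39.6 CPM for 22 genes. These are descriptions of genes that share reads, and no test was made.

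**Figure D2:**
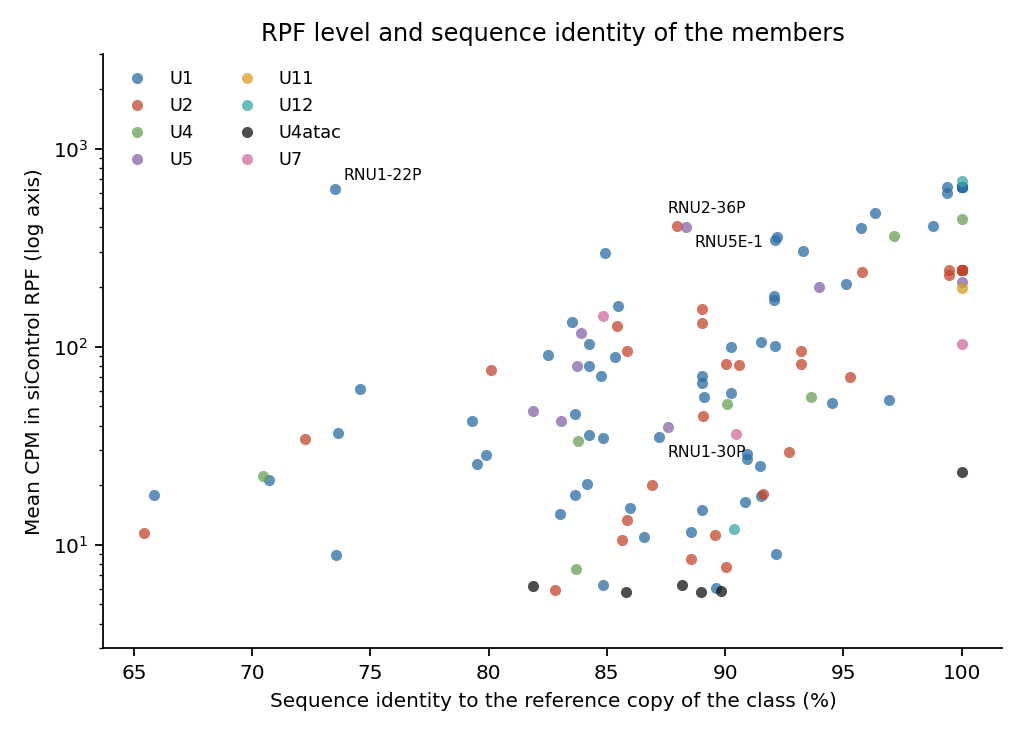
Sequence identity of each member to the reference copy of its class (x axis, %) against its mean level in siControl RPF (y axis, CPM, log axis), one point per member, coloured by class. Copies near 100% identity are mostly high, and RNU1-22P is at 623 CPM with 73.5% identity.

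Several members lie inside other genes, and there the same reads were counted for both. Of 14 overlapping annotations, 10 lay on the member's own strand, 5 of them protein-coding and 5 lncRNA. RNU4-46P held 99.8% to 100% of the RPF counts of TMC5, a gene of the TMC membrane protein family, RNU2-2P 81.2% to 88.0% of those of WDR74, a ribosome biogenesis factor, RNU7-1 72.6% to 80.2% of those of C12orf57, and RNU1-39P 82.5% to 96.7% of those of ZNF354B, a zinc finger gene. For these 4 protein-coding genes, the RPF counts in the files are therefore mostly the snRNA's. On the opposite strand, the 4 overlapping lncRNAs had 0.00781 to 0.268 CPM in siControl RPF, beside members at 88.8 to 649.6 CPM.

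The knockdown comparison asked whether snRNA fragments differ in RPF between siIGF2BP3 and siControl. All 128 members were tested with all other genes, and 20 rose and 0 fell (edgeR quasi-likelihood test, adjusted p under 0.05), where the background was 1.02% of the 20192 genes tested for rises and 1.66% for either direction. At an unadjusted p under 0.05, 101 of 128 members passed, and 16.1% of all genes tested. Of the 20 rises, 5 were among the 8 members that reach the threshold through siIGF2BP3 alone, whose rise is therefore a description, and 15 were among the other 120, with a median of 0.62. The median log2 fold change of the members was 0.62, against 0.01 over all genes tested, and the fitted value was above 0 for all 128. In CPM, all 3 siIGF2BP3 libraries lay above all 3 siControl libraries for 105 members, the groups overlapped for 23 and lay the other way for 0, where 10.9% of all genes tested had siIGF2BP3 above. With equal copies counted once, 18 of 107 members passed and the median was 0.70. In these bulk samples more cells with an RNA and more of it per cell cannot be told apart.

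The number of calls depended on the libraries, and the direction held for most members. Without siIGF2BP3 RPF replicate 1, 82 members rose, the median fell to 0.35 and 126 of 128 values were above 0, but the background of rises was then 7.97% of all genes. With siControl replicates 2 and 3 summed into 1 library, 3 members rose (background 0.0481%), and with both steps 77 rose (7.08%). With the replicate number as a block, 31 rose (1.45%), of which 19 were among the 20. The 12 others were RNU1-20P, RNU1-30P, RNU1-34P, RNU1-63P, RNU1-115P, RNU2-39P, RNU2-50P, RNU2-56P, RNU2-68P, RNU12-2P, RNU4ATAC and RNU7-19P. In RPF the libraries numbered 1 of the conditions deviated together (correlation 0.402), which is why the block is given here. Pairs were not shown for numbers 2 and 3, as siControl replicate 3 correlated more with siIGF2BP3 replicate 2 (0.190) than with replicate 3 (0.136). DESeq2 called 70 members (1.91%) and gave no adjusted p for 2. Over the 120 members that reach the threshold in both conditions, the rises numbered 75 without siIGF2BP3 replicate 1, 1 with the sum, 70 with both steps, 23 with the block and 64 with DESeq2. Over the 17 alternatives, 4 members had a value below 0 in at least 1, the lowest at -0.25, and each of the 20 calls but that of RNU2-5P was lost in 2 or more. The members were chosen on values of the same libraries, so these shares are set beside the background as a description.

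**Figure D3:**
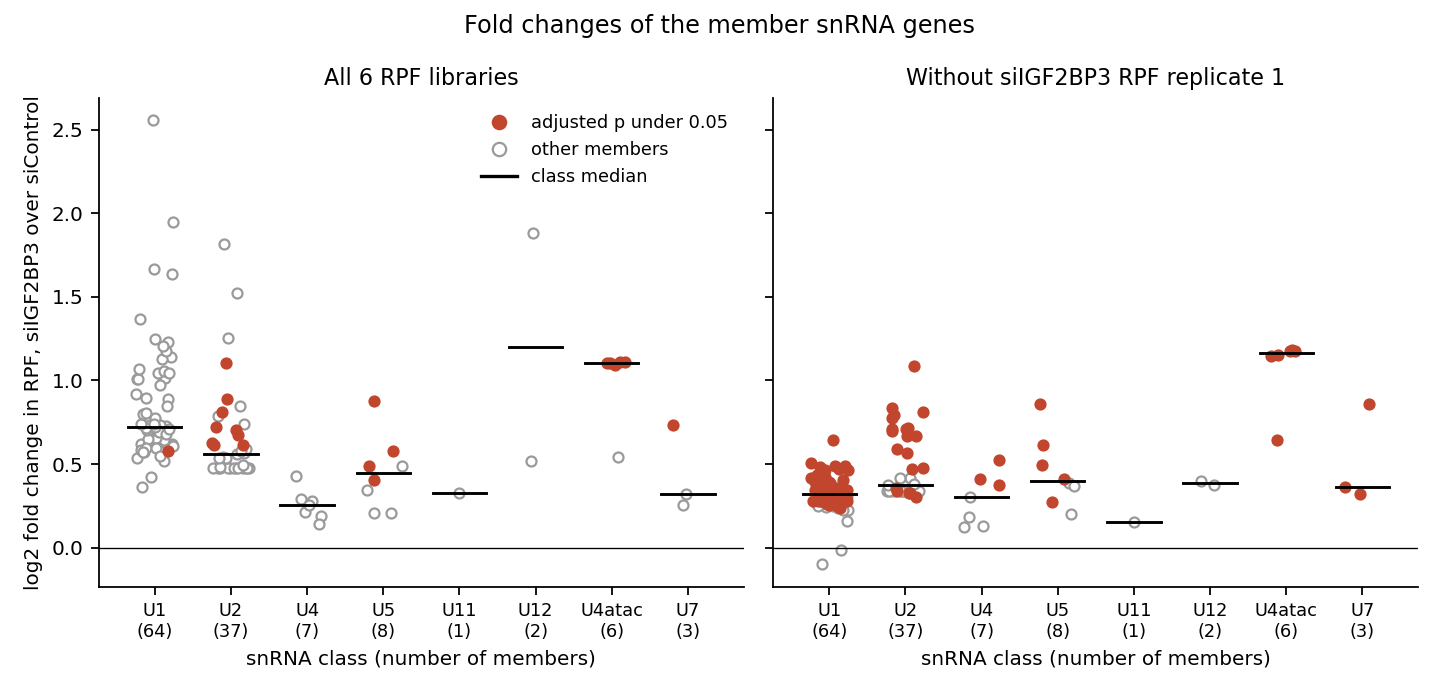
log2 fold change in RPF (y axis, siIGF2BP3 over siControl) of each member by class (x axis, number of members in brackets), from all 6 RPF libraries on the left and without siIGF2BP3 RPF replicate 1 on the right. Red points have an adjusted p under 0.05, open points do not, and bars are class medians. U1 values spread up to 2.56 on the left and lie between -0.10 and 0.64 on the right, while the U4atac values stay between 0.54 and 1.18 in both.

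Class sums do not depend on how reads were split between the annotated copies of a class, and are given as fold changes with no p. They can still depend on whether reads with many alignments were left out, and on reads shared with places outside those genes. A window of RNU2-1, for example, occurred at up to 116 places, while 90 U2 genes were summed. U1 summed to 12198, 12351 and 12168 CPM in siControl RPF and to 28751, 15203 and 14881 CPM in siIGF2BP3 RPF. The groups did not overlap, and replicate 1 of siIGF2BP3 was almost at the level of the other 2 libraries of its group together. The log2 fold change was 0.71 ± 0.27 (SE), and 0.30 ± 0.03 without that library. Of the 64 U1 members, only RNU1-55P passed the test (0.58 ± 0.10, adjusted p = 0.0436), with 14.5, 15.7 and 16.5 CPM in siControl and 25.8, 21.7 and 21.6 CPM in siIGF2BP3 RPF. That call was lost with the block (adjusted p = 0.0589). Without siIGF2BP3 replicate 1, 45 U1 members rose, with values of -0.10 to 0.64 over all 64. The highest U1 members, RNU1-4, RNU1-2, RNU1-28P and RNVU1-29, had log2 fold changes of 0.61 to 0.62 (adjusted p = 0.244 to 0.245), and without that library RNU1-4 was at 0.28 (adjusted p = 0.000684).

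U2 summed to 4687, 5499 and 5353 CPM in siControl and 8771, 6825 and 6696 CPM in siIGF2BP3 RPF, a log2 fold change of 0.54 ± 0.13 (SE), and 0.38 ± 0.08 without siIGF2BP3 replicate 1. All siIGF2BP3 libraries were above siControl for 36 of the 37 U2 members, and 9 members rose. These were RNU2-17P (1.11), RNU2-70P (0.89), RNU2-5P (0.81), RNU2-32P (0.72), RNU2-23P (0.70), RNU2-29P (0.67), RNU2-64P (0.63) and the pair RNU2-26P and RNU2-57P (0.62 each). Except for that pair, whose copies have equal values on the X and Y chromosomes, they were low U2 copies, at 6.98 to 38.8 CPM in siControl RPF. The tandem U2 genes themselves differed by 0.48 ± 0.12 on the log2 scale (SE, adjusted p = 0.109), with 224, 270 and 261 CPM in siControl and 399, 323 and 313 CPM in siIGF2BP3. RNU2-36P was at 0.56 ± 0.13 (adjusted p = 0.0822) and RNU2-2P at 0.54 ± 0.12 (adjusted p = 0.0736). Without siIGF2BP3 replicate 1, 20 U2 members rose, and the tandem genes were at 0.34 (adjusted p = 0.101), RNU2-36P at 0.41 (0.0636) and RNU2-2P at 0.41 (0.0576).

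U4, of the tri-snRNP, had the lowest class value. It summed to 933, 1109 and 1041 CPM in siControl and 1215, 1246 and 1092 CPM in siIGF2BP3 RPF, so that the groups overlapped, and the log2 fold change was 0.22 ± 0.08 (SE), and 0.18 ± 0.11 without siIGF2BP3 replicate 1. None of the 7 U4 members passed, and 4 had an unadjusted p under 0.05. RNU4-1 was at 409, 493 and 453 against 563, 533 and 453 CPM, and RNU4-2 at 335, 401 and 381 against 412, 447 and 399 CPM, where RNU4-1 (0.21 ± 0.11, adjusted p = 0.393) and RNU4-2 (0.19 ± 0.08, adjusted p = 0.302) are the main genes of the class. RNU4-7P was at 50.6, 61.4 and 60.2 against 65.5, 73.5 and 67.4 CPM, and RNU4-46P at 47.7, 56.3 and 52.9 against 57.1, 62.2 and 51.6 CPM. The groups were apart for RNU4-7P and overlapped for the other 3. Without siIGF2BP3 replicate 1, 3 of the 7 members rose, and RNU4-1 was at 0.12 and RNU4-2 at 0.18 (adjusted p = 0.661 and 0.400).

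U5 summed to 1076, 1246 and 1190 CPM in siControl and 1601, 1626 and 1480 CPM in siIGF2BP3 RPF, a log2 fold change of 0.44 ± 0.07 (SE), and 0.41 ± 0.08 without siIGF2BP3 replicate 1. U5 aligns the exons for ligation, and its sum was nearly equal in the siIGF2BP3 libraries, replicate 1 included. Of 8 members, 4 rose: RNU5E-6P (0.88), RNU5A-8P (0.58), RNU5E-4P (0.49) and RNU5A-1 (0.41). RNU5A-1, the reference copy, was at 201, 228 and 217 CPM in siControl and 274, 297 and 275 CPM in siIGF2BP3 (0.41 ± 0.06, adjusted p = 0.0261). RNU5E-1, the highest U5 member, was at 371, 439 and 428 against 635, 550.2 and 529 CPM (0.49 ± 0.10, adjusted p = 0.0668). RNU5B-1 was at 187, 220.2 and 202 against 228, 253 and 214 CPM (0.21 ± 0.08, adjusted p = 0.282), and RNU5F-1 at 110.4, 128 and 120.0 against 141, 170.0 and 139 CPM (0.34 ± 0.09, adjusted p = 0.112). RNU5B-1 was the only 1 of these 4 whose groups overlapped. Without siIGF2BP3 replicate 1, 5 of the 8 members rose, and RNU5A-1 was at 0.41 (adjusted p = 0.00606), RNU5E-1 at 0.39 (0.0607), RNU5B-1 at 0.20 (0.370) and RNU5F-1 at 0.37 (0.140).

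Of the classes that serve rare introns, U12 summed to 640.3, 759.8 and 751 CPM in siControl and 1246, 945 and 922 CPM in siIGF2BP3 RPF, a log2 fold change of 0.56 ± 0.14 (SE), and 0.38 ± 0.09 without siIGF2BP3 replicate 1. RNU12, the highest of all members by RPF sum, was at 622, 756 and 744 against 1158, 932 and 906 CPM (0.52 ± 0.13, adjusted p = 0.0982). RNU12-2P, its other copy, was at 18.5, 3.77 and 7.31 against 87.7, 12.5 and 16.1 CPM, so that replicate 1 was the highest library in each condition and the groups overlapped (1.88 ± 1.05, adjusted p = 0.470, and 0.0119 with the block). RNU11 was at 184, 217 and 208 against 304, 222 and 230 CPM (0.33 ± 0.14, adjusted p = 0.309), or 0.15 without siIGF2BP3 replicate 1.

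U4atac had the largest class value of those with members. Its sum holds 5 pseudogene copies that became members through siIGF2BP3 alone, so this rank is a description. U4atac summed to 49.9, 58.3 and 56.4 CPM in siControl and 85.9, 112 and 101 CPM in siIGF2BP3 RPF. The log2 fold change was 0.88 ± 0.09 (SE), and 0.96 ± 0.07 without siIGF2BP3 replicate 1, which here was the lowest library of its group. The functional gene RNU4ATAC was at 20.5, 28.1 and 24.4 against 29.1, 39.2 and 35.8 CPM, apart by 1.0 CPM between the nearest libraries (0.54 ± 0.13, adjusted p = 0.0988, and 0.0165 with the block). The 5 pseudogene copies passed the test, but they reach the member threshold through siIGF2BP3 alone, so their values are a description. RNU4ATAC13P was at 5.69, 5.75 and 6.11 against 10.7, 13.9 and 12.5 CPM (1.11 ± 0.10, adjusted p = 0.00412, and 1.18 without siIGF2BP3 replicate 1). RNU4ATAC11P and RNU4ATAC9P had 1.11 ± 0.10 (adjusted p = 0.0046 each), RNU4ATAC5P 1.10 ± 0.09 and RNU4ATAC10P 1.09 ± 0.09 (adjusted p = 0.00333 each), and all 5 had 0 counts in Input. These copies lie on 4 chromosomes but their levels ranged by only 5.63% to 11.4% of their median in a library. Their sequences were 76.2% to 89.8% identical to each other, and the longest run of bases present in all 5 was 20 nt, shorter than a footprint. Windows were compared by exact match, and whether the 5 values are separate signals was not tested. Bases that differ from RNU4ATAC are in capitals in a pair of them, to show how far copies with almost equal counts differ.
RNU4ATAC5P: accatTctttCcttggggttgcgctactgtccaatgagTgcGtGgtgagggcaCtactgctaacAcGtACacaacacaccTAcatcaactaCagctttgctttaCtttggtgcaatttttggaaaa
RNU4ATAC13P: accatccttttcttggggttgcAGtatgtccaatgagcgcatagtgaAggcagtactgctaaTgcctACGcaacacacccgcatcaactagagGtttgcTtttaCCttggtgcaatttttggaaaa
RNU4ATAC5P lies at chr11:122451474-122451599 and RNU4ATAC13P at chr5:113493835-113493960, both on the plus strand. With siControl replicates 2 and 3 summed, RNU4ATAC5P and RNU4ATAC10P passed (adjusted p = 0.0455 each) and the other 3 did not (0.0518 each).

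U7 summed to 274, 305 and 294 CPM in siControl and 326, 408 and 372 CPM in siIGF2BP3 RPF, a log2 fold change of 0.36 ± 0.08 (SE), and 0.42 ± 0.06 without siIGF2BP3 replicate 1, again the lowest of its group. RNU7-1, the reference copy, was at 98.3, 112 and 106 against 109.9, 136 and 127 CPM (0.25 ± 0.08, adjusted p = 0.163). RNU7-19P was at 137, 153 and 147 against 164, 195 and 179.6 CPM (0.32 ± 0.07, adjusted p = 0.0696, and 0.0369 with the block), and RNU7-3P rose from 34.8, 37.5 and 37.5 to 47.3, 72.4 and 60.2 CPM (0.73 ± 0.13, adjusted p = 0.0377). The groups overlapped for RNU7-1 only. Without siIGF2BP3 replicate 1 all 3 rose, RNU7-1 by 0.32, RNU7-19P by 0.36 and RNU7-3P by 0.86 (adjusted p = 0.00490, 0.00308 and 0.000345). U6, with no member, summed to 55.6, 43.9 and 47.4 against 109.4, 80.7 and 75.6 CPM (0.88 ± 0.16, and 0.67 ± 0.09 without that library), and U6atac to 8.21, 18.1 and 14.1 against 13.2, 19.9 and 20.0 CPM (0.45 ± 0.28, and 0.63 ± 0.39), where the groups overlapped.

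**Figure D4:**
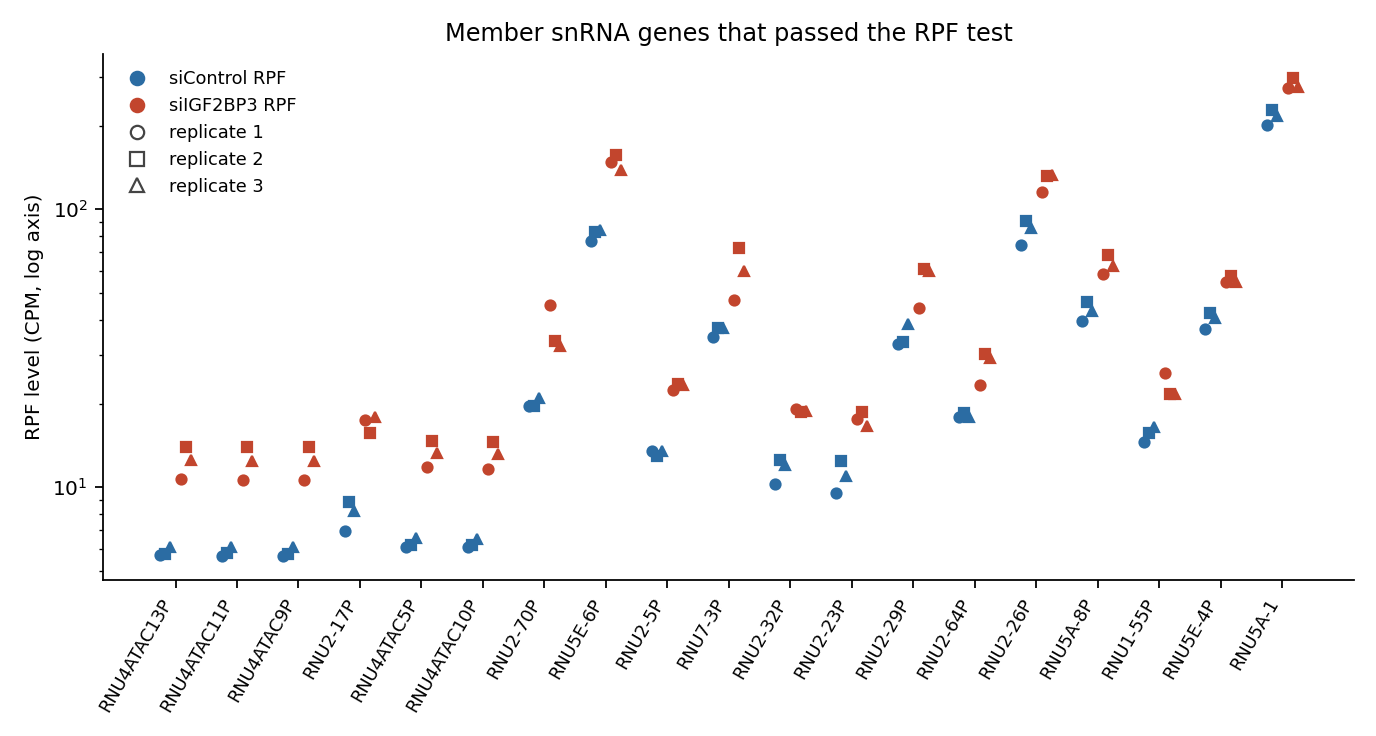
RPF level (y axis, CPM, log axis) in each of the 6 libraries for the members that passed the test, ordered by log2 fold change. Blue is siControl, red siIGF2BP3 and the shape gives the replicate; RNU2-57P, with values equal to those of RNU2-26P, is not drawn. For each gene all red points lie above all blue points, and replicate 1 is the lowest red point for the RNU4ATAC copies and the highest for RNU2-70P, RNU2-32P and RNU1-55P.

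Among the called members, RNU2-5P was the only 1 that passed in all 17 alternatives, and it is described here because of that, after its values were seen. It was at 13.5, 12.9 and 13.5 CPM in siControl and 22.4, 23.5 and 23.4 CPM in siIGF2BP3 RPF. On the log2 scale it rose by 0.81 ± 0.05 (SE, adjusted p = 0.00144), with 0.70 to 0.82 over the alternatives. It has 85.9% identity to RNU2-1, lies at chr9:70188571-70188750 on the minus strand, and had 10 counts over the 6 Input libraries. RNU2-17P rose from 6.98, 8.84 and 8.23 to 17.5, 15.6 and 17.9 CPM (1.11 ± 0.11, adjusted p = 0.00765, and 1.09 without siIGF2BP3 replicate 1). RNU5E-6P rose from 77.1, 82.5 and 84.5 to 148, 157 and 138 CPM (0.88 ± 0.07, adjusted p = 0.00333), and its call was lost without siControl replicate 2 or with replicates 2 and 3 summed (adjusted p = 0.0517). The RNU2-5P sequence is printed with the bases that differ from RNU2-1 in capitals. It keeps the branch point element and lacks a stretch near the 3′ end. It has no match to the Sm core (ATTTNT), whose first base in RNU2-1 is replaced by G.
RNU2-5P: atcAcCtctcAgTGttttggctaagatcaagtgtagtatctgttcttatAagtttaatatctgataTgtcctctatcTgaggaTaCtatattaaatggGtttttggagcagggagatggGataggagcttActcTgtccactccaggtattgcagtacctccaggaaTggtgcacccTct

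Replicate 1 of the RPF libraries had a pattern of its own. For each member the level in replicate 1 was divided by the mean of replicates 2 and 3. In siIGF2BP3 this ratio had a median of 1.48 (0.714 to 15.2), and by class its median was 3.70 for the 2 U12 members, 1.79 for U1, 1.35 for the 1 U11 member, 1.25 for U2, 0.966 for U5, 0.930 for U4, 0.836 for U7 and 0.807 for U4atac. siIGF2BP3 replicate 1 was the highest RPF library for 99 members, all 64 U1 and 30 of 37 U2 members among them. In siControl the ratio had a median of 0.938 (0.783 to 5.09). Members with a high ratio in siIGF2BP3 also had a high ratio in siControl: over the 128 members Spearman's rho was 0.78 and Pearson's r of the log2 ratios 0.87, and over 107 members with equal copies counted once 0.82 and 0.88. This is a description across genes, which share reads and libraries.

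**Figure D5:**
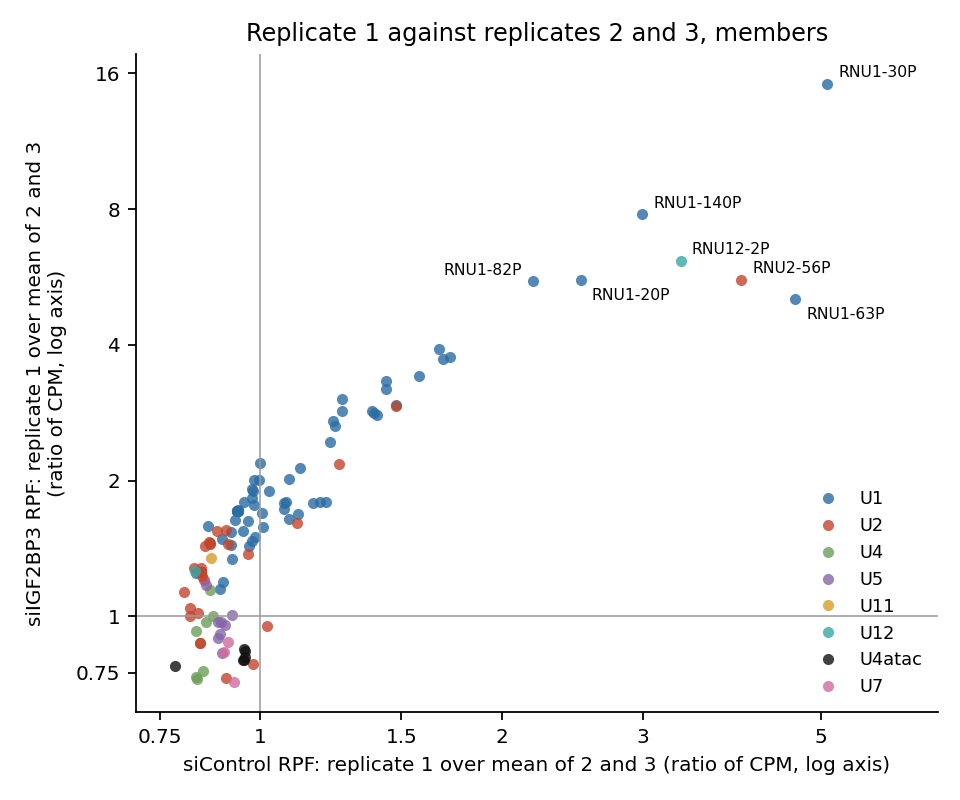
Level in replicate 1 over the mean of replicates 2 and 3, in siControl RPF (x axis) and siIGF2BP3 RPF (y axis), as ratios of CPM on log axes, 1 point per member and coloured by class. The points rise together from the U4, U7 and U4atac members near or below 1 to RNU1-30P at 5.09 in siControl and 15.2 in siIGF2BP3.

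In siIGF2BP3 the ratio was at least 3 for 14 members, which are named here after their values were seen: 12 U1 genes, RNU2-56P and RNU12-2P. In siControl their ratio was 1.26 to 5.09. RNU1-30P was at 58.3, 9.83 and 13.1 CPM in siControl and 420.3, 24.4 and 31.1 CPM in siIGF2BP3 RPF. RNU1-140P was at 154, 41.8 and 61.3 against 768, 87.3 and 110.0 CPM, and RNU2-56P at 71.5, 10.5 and 25.4 against 277, 40.3 and 59.1 CPM. In all 3 genes the highest siControl library exceeded the lowest siIGF2BP3 library. Their identity to the reference copy was 73.7% to 94.5% over the 14. None of the 15 U1 members with at least 95% identity reached a ratio of 3 (1.44 to 2.65). Both cuts fall between near values. RNVU1-2 had 94.5% identity and a ratio of 3.03, and RNU1-89P had 97.0% and 2.65. RNU1-30P had the largest fitted change of all members, 2.56 ± 1.47 (SE, adjusted p = 0.488, and 0.0390 with the block), and was at -0.10 without siIGF2BP3 replicate 1. Bases that differ from RNU1-1 are in capitals, and RNU1-30P, unlike RNU1-140P, keeps the pairing element.
RNU1-30P: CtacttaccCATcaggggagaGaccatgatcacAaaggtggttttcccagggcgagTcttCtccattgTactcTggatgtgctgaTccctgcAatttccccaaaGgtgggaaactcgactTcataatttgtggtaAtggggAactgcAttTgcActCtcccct
RNU1-140P: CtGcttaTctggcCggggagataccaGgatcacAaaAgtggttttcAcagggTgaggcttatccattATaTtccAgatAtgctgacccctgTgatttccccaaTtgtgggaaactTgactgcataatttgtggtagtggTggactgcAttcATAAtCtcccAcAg
RNU1-30P lies at chr3:126160283-126160445 on the minus strand and RNU1-140P at chr5:104098874-104099038 on the plus strand. Other RNA types also differed in siIGF2BP3 RPF replicate 1, some of them higher and some lower. rRNA took 1.15% of the counts in siIGF2BP3 RPF replicate 1 and 0.662% to 0.757% in the other RPF libraries, rRNA pseudogenes 0.397% against 0.121% to 0.178%, and the type misc_RNA, which holds Y RNA and 7SL, 0.554% against 0.318% to 0.397%. Protein-coding genes took 82.7% there and 84.7% to 86.2% in the other RPF libraries. Other short types were lower there than in siIGF2BP3 RPF replicates 2 and 3. These were miRNA (0.0791% against 0.0993% and 0.0891%) and snoRNA (0.362% against 0.423% and 0.414%). So were scaRNA (0.0384% against 0.0448% and 0.0426%) and mitochondrial tRNA (0.0606% against 0.0761% and 0.0723%). The part of these differences in the snRNA values was not tested.

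The comparisons of Input and of TE, where RPF is set against Input, hold almost no information on snRNA. Only RNU1-16P, with 50 counts over the 6 Input libraries, passed the low-count filter. In Input it differed by 0.23 ± 0.47 on the log2 scale (SE, adjusted p = 0.839) and in TE by 0.99 ± 3.06 (adjusted p = 0.912). In Input 0 of 1 members was called, 0 had an unadjusted p under 0.05 and DESeq2 gave it no adjusted p, where 5.96% of 14759 genes were called. In TE 0 of 1 was called by edgeR and by DESeq2, where 2.17% of 13395 genes were called. With no filter 40 members were tested in Input and 128 in TE and 0 were called, with 0 and 1 at an unadjusted p under 0.05. A change in the members' level in the Input RNA was not detectable at counts this low. U6, with no member, had 2013 Input counts, at 23.5 to 25.5 CPM in siControl and 27.2 to 31.0 CPM in siIGF2BP3, so that the groups did not overlap, and this difference was not tested.

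Among the other short RNA types, miRNA genes had 29 rises of 151 tested (median log2 fold change 0.50), misc_RNA 10 of 221 (0.48), snoRNA 7 of 271 (0.19), scaRNA, which guides the modification of snRNA, 4 of 22 (0.49) and mitochondrial tRNA 8 of 22 (0.50), with 0 falls in each. Over all 250 snRNA genes tested, members and others, 30 rose and the median was 0.62. Protein-coding genes had 98 rises and 105 falls of 12399, with a median of 0.00. Without siIGF2BP3 replicate 1 the rises numbered 95 for miRNA (median 0.91), 82 for misc_RNA (0.39), 89 for snoRNA (0.22), 15 for scaRNA (0.46), 18 for mitochondrial tRNA (0.55), 118 for snRNA (0.39) and 968 for protein-coding genes (-0.02). In RPF, 8 mainly cytoplasmic short RNAs (7SL, Y and vault RNAs) summed to 1063 to 1182 CPM in siControl and 1363 to 1849 CPM in siIGF2BP3. Within that list the groups overlapped for RNY3 and VTRNA1-3. A list of 10 mainly nuclear RNAs (RPPH1, MALAT1 and others) summed to 598 to 683 CPM in siControl and 688 to 809 CPM in siIGF2BP3. RPPH1 was the highest of these, at 425 to 576 CPM over the RPF libraries, and its groups overlapped. Higher RPF values in siIGF2BP3 were thus seen in other RNA types as well as in snRNA, and a difference between the types was not tested.

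The proteins that bind, build or process snRNA did not share the snRNA pattern in RPF, and a difference from it was not tested. Of a list of 114 such genes, all tested, 0 passed in RPF by edgeR (1 by DESeq2), 16 had an unadjusted p under 0.05, and 17 passed without siIGF2BP3 replicate 1, where 16.5% of all genes did in either direction, so that the list was near the background. In Input 13 passed, beside 5.96% of all genes. Of these 9 rose: SF3B1, the U2 protein that holds the branch point (1122, 1172 and 1143 CPM in siControl and 1453, 1428 and 1406 CPM in siIGF2BP3, 0.27 on the log2 scale, adjusted p = 0.000296), LUC7L (0.29) and LUC7L3 (0.17), which act with U1, CENATAC (0.37) of the minor spliceosome, the export receptor XPO1 (0.17), the snRNA promoter factor SNAPC4 (0.50), and INTS4 (0.40), INTS6 (0.35) and INTS11 (0.30) of Integrator, the complex that cuts snRNA 3′ ends. The other 4 fell: SNRNP70 of U1 (-0.21), PRPF31 of the tri-snRNP (-0.29), ZCRB1 of the minor spliceosome (-0.21) and STRAP of the SMN complex (-0.18). Without siControl Input replicate 3, 8 passed. In TE 5 passed, beside 2.17% of all genes, with PRPF31 at 0.42 and SF3B1 at -0.42, LUC7L at -0.29, INTS9 at -0.47 and SNAPC4 at -0.55. SF3B1 was called in all 21 alternatives, while the count of 5 went from 1 to 25 over them: it was 25 without siIGF2BP3 RPF replicate 1, 3 without siIGF2BP3 Input replicate 3, 2 without siControl Input replicate 1 or 2, and 1 without siControl Input replicate 3, siControl RPF replicate 1, 2 or 3, siIGF2BP3 Input replicate 1 or 2, or siIGF2BP3 RPF replicate 2. With the block it was 1.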

How the data were processed

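The submitters' processing notes name Cutadapt, STAR, featureCounts and the build hg38, with versions and options not given in the sources used here. The authors deposited estimated counts for each gene without depth scaling, many of them fractional, and some reads were counted for 2 overlapping genes. Values were rounded for the tests, and a library total moved by at most 0.0445%. Names and types came from GENCODE 44 and matched 99.2% of identifiers. CPM is the count scaled to the library total.

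RPF, Input and TE (interaction of assay and knockdown, all 12 libraries) were tested with edgeR 4.0.16 in R 4.3.3 (filterByExpr, TMM, robust quasi-likelihood), two-sided, with Benjamini-Hochberg adjustment over all genes tested and a threshold of 0.05. The scripts were tested on simulated data. SEs derive from the estimate and its F statistic. Alternatives were DESeq2 1.42.0, other scaling factors and filters, a length offset, the replicate block, leaving out each library and summing siControl RPF replicates 2 and 3. Leaving out both RPF libraries numbered 1, and leaving out siIGF2BP3 replicate 1 with that sum, were added after seeing the data. In RPF, deviations from the group means correlated between same-numbered libraries over 15669 genes (0.402, 0.338 and 0.136 for numbers 1, 2 and 3). Replicate 2 of siControl also correlated with replicate 3 of siIGF2BP3 (0.241). Replicate 3 of siControl correlated more with replicate 2 of siIGF2BP3 (0.190) than with replicate 3, so pairs were not shown for numbers 2 and 3. In Input the same-numbered values were 0.0371, -0.0175 and -0.0296. The numbers come from the sample titles.

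Classes were taken from symbols, and genes named only U2 were placed in U2. Identity is matches over alignment columns of a global pairwise alignment. The members and lists were chosen with earlier results of these data known. Named with values were the 4 highest members of each class and every called member, and others where the text says so. Reads carry no molecular identifiers, so limits from a count of 0 cover counting error only. Some items are not reported here.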

Additional observations from a re-analysis of the deposited data

How the results depend on the processing

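The number of members that rose in RPF was 20, and it was 31 with the replicate block, 70 with DESeq2, 13 with the length offset, 13 among genes with a sum of at least 2000, 3 with siControl replicates 2 and 3 summed, 119 without both libraries numbered 1 and 77 without siIGF2BP3 replicate 1 with that sum. Leaving out 1 library gave 1 to 82: 2, 1 and 4 without siControl replicate 1, 2 or 3, and 82, 8 and 8 without siIGF2BP3 replicate 1, 2 or 3. Over all genes 336 were called, with 674 under DESeq2, 140 with a minimum change of 0.58 on the log2 scale, 14, 3236 and 3025 under those 3 changes of libraries, and 11 to 3410 without 1 library: 15, 11 and 15 without siControl replicate 1, 2 or 3, and 3410, 38 and 70 without siIGF2BP3 replicate 1, 2 or 3. Without both libraries numbered 1 the class log2 fold changes were 0.28 for U1, 0.31 for U2, 0.11 for U4, 0.34 for U5, 0.078 for U11 and 0.29 for U12. The U1 value was 0.30 to 0.89 without 1 library, lowest without siIGF2BP3 replicate 1, and 0.30 without it and with the sum. RLE, upper-quartile and protein-coding TMM factors and both filters moved no count of members by over 1.5 times. The block changed no call of a member in Input or TE. Over all genes, the block moved the calls from 879 to 931 in Input and from 291 to 121 in TE. The fits without 1 sample use fewer libraries; the other causes were not tested. For 41 named members and 697 values under alternatives, 553 kept the direction and the side of the threshold, 102 lost a call, 42 gained it and 0 reversed. With 2.70 to 4.38 CPM for all members together, low counts limit every Input value of the members.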
